A study of Homo sapiens with 9 samples.

Results

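The transforming growth factor beta (TGF-beta) genes TGFB1, TGFB2, TGFBR1, TGFBR2, SMAD2, SMAD3, SMAD7 and LTBP1 were followed by RNA sequencing in HK-2 cells, a line of human proximal tubule epithelium transformed with human papillomavirus. They were taken from the deposited count table by gene symbol, and all 8 of the 8 symbols were found among its 62703 genes. The series concerns MYDGF, a secreted growth factor, in kidney tubule cells exposed to aristolochic acid (AA), a plant toxin that injures the proximal tubule. Each group had 3 libraries, numbered as in the labels: untreated wild-type cells (1, 2 and 3), wild-type cells with 5 µg/ml AA for 48 h (1, 4 and 6), and cells overexpressing MYDGF from an adenovirus (vector GV314) with the same AA treatment (1, 3 and 4, called the MYDGF group here). All cells were grown in 5% serum, and a 12 h serum starvation is described before AA. The labels name no vehicle and no control vector, so MYDGF and its vector cannot be told apart. Nothing in the labels ties the 3 libraries of a group to separate cultures, so p-values here reflect the spread among these samples alone, and part of it may be technical. The level of MYDGF went with the labels: it was at 123 to 131 counts per 1e6 (CPM, scaled with TMM) in untreated cells, 74.2 to 105 with AA and 510.2 to 663 in the MYDGF group.

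TGF-beta ligands are secreted in a latent complex, in which the prodomain holds the ligand and a latent TGF-beta binding protein tethers it to the matrix. Once released, the ligand binds the type II receptor, which activates the type I receptor, and this phosphorylates SMAD2 and SMAD3, which enter the nucleus with SMAD4. SMAD7 is the inhibitory SMAD of the pathway and is itself a target gene of it. In the kidney the pathway is best known for its part in tubular injury, loss of epithelial traits and fibrosis.

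The upstream sequences of SMAD7, SMAD3, TGFB1 and LTBP1 are shown because these members had the largest differences between groups, and because SMAD proteins bind short DNA motifs near target genes. They are from RefSeq, build GRCh38.p14, and run 5′ to 3′ on the strand of the gene. The window searched was the 250 bases before the RefSeq start of each gene, and capitals mark the SMAD box, GTCT or AGAC on the other strand. In GENCODE 29 the SMAD7 window (strand -) lies inside exon 1 of SMAD7, so only the 30 bases around a pair of joined boxes are shown, at chr18:48951074-48951103. The SMAD3 sequence (strand +) is chr15:67065352-67065601, inside the locus that the table gives for the gene. The TGFB1 sequence (strand -) is chr19:41353923-41354168, without 4 bases of the window that belong to an exon of TMEM91 on the other strand, and the LTBP1 sequence (strand +) is chr2:32946703-32946952.
SMAD7: cttattttgccAGACGTCTcatgcggggtg
SMAD3: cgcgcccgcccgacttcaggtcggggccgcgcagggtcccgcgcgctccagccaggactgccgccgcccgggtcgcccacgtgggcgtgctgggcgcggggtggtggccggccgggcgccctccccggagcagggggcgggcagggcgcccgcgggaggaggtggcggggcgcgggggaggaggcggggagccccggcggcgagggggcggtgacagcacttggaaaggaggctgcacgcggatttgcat
TGFB1: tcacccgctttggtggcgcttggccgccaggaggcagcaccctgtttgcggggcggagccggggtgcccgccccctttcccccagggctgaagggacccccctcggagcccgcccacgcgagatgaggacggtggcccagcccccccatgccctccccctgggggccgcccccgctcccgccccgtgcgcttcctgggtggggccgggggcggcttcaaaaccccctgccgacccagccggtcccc
LTBP1: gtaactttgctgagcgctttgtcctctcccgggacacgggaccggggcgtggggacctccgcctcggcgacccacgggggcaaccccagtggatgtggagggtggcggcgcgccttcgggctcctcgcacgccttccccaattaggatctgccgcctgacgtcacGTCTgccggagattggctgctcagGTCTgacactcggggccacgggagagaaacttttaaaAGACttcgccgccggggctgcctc

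The SMAD7 window held 4 SMAD boxes, of which the joined pair is visible above, and the LTBP1 and TGFB2 windows held 3 each. The windows of TGFBR1, TGFBR2 and SMAD2 held 1 box each, and those of TGFB1 and SMAD3 none. At least 1 box was present in 77.5% of the 35116 promoter windows of the same length in the RefSeq table and at least 4 in 7.75%, so a box in 6 of the 8 members is close to the general share. The joined form AGACGTCT, looked for after the SMAD7 sequence had been seen, was in 0.137% of windows. The palindrome GTCTAGAC, in 0.182% of windows, and the AP-1 site TGACTCA, searched on both strands and in 4.20%, were in none of the member windows. TGFB1 and SMAD3, the members without a box, are GC-rich upstream (76.8% and 80.8% of the window), against 48.0% for SMAD7. TGFBR1 (79.6%) and SMAD2 (78.4%), which hold 1 box each, are similarly GC-rich, so this does not set the members without a box apart. These matches are descriptions of the letters in the window and say nothing about binding.

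All 8 members had enough counts to be tested. With AA, SMAD7 and SMAD3 rose, while LTBP1, TGFB1 and TGFBR2 fell, relative to untreated cells (edgeR quasi-likelihood test, Benjamini-Hochberg adjusted p under 0.05 over 18267 genes). That is 5 of 8 members, beside 59% of all genes tested (29.7% higher, 29.3% lower). Against AA alone, TGFB1 rose and SMAD3 and SMAD7 fell in the MYDGF group, 3 of 8 members beside 29.4% of all genes (14.7% in each direction). In the MYDGF group against untreated cells, SMAD7 and SMAD3 rose and LTBP1 and TGFB1 fell, 4 of 8 beside 51.1% (26.8% higher, 24.3% lower). None of these shares is far from its background, and the comparisons share libraries, so they are not independent of each other. The groups did not overlap in CPM for 7 of 8 members in the first comparison, 5 in the second and 6 in the third, against 65.9%, 44.3% and 63.9% of all genes. The median log2 change over the 8 members was 0.02, -0.11 and -0.14, beside -0.01, 0.01 and 0.02 over all genes tested.

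**Figure D1:**
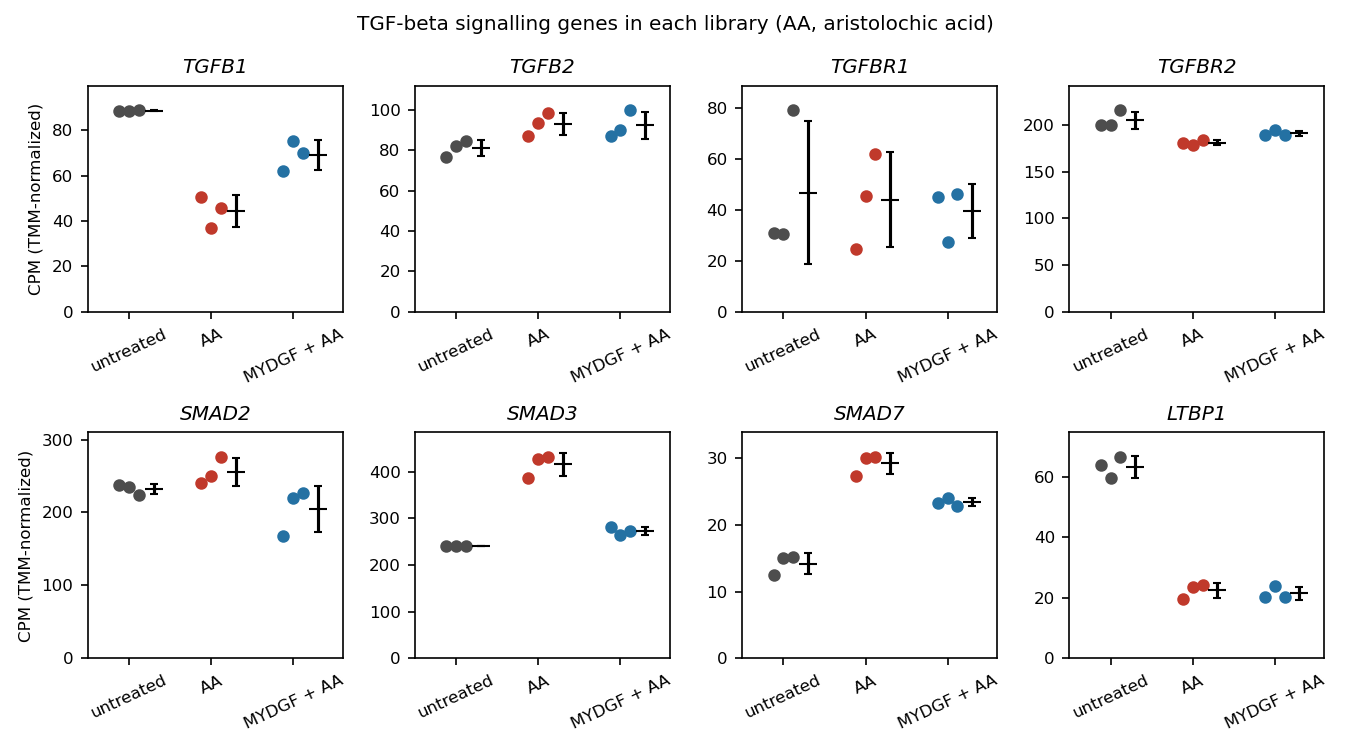
Level of each TGF-beta gene in each of the 9 libraries, in TMM-normalized CPM on a linear axis from 0; points are libraries, and the black bar beside each group is the mean ± SD (n = 3). LTBP1 is at 59.5 to 66.7 CPM in untreated cells and at 19.7 to 24.3 in both AA-treated groups. For TGFB1, SMAD3, SMAD7 and TGFBR2 the MYDGF group lies between the other groups.

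TGFB1 (ENSG00000105329, chromosome 19, 41301587 to 41353922), the main ligand of the family in the injured kidney, was at 88.4, 88.3 and 88.7 CPM in untreated libraries 1, 2 and 3. It was at 50.6, 36.7 and 45.8 CPM in AA libraries 1, 4 and 6. The values of MYDGF libraries 1, 3 and 4 were 61.9, 75.3 and 69.9 CPM. The untreated libraries were thus nearly alike, each AA library was lower than every other library, and the MYDGF libraries lay between, with no overlap of any groups. The mean fell 1.99-fold with AA (log2 fold change -0.996, SE 0.118, adjusted p = 0.000106). It was 1.56-fold higher in the MYDGF group than with AA alone (0.64, SE 0.118, adjusted p = 0.00484). Against untreated cells the MYDGF group was lower (-0.36, SE 0.116, adjusted p = 0.0280). That last call was lost when any of untreated 1, 2 or 3 or MYDGF 1 or 4 was left out (adjusted p = 0.0589, 0.0570, 0.0845, 0.126 and 0.0794).

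The TGFB1 locus overlaps genes on the opposite strand, and no source used here gives the strand setting of the counting. HNRNPUL1 had 54077 counts over the 9 libraries and CCDC97 6454, against 7701 for TGFB1. HNRNPUL1 went from 479 CPM (untreated mean) to 414 with AA and 523 in the MYDGF group, and CCDC97 from 49.0 to 88.9 and 34.3. CCDC97 therefore stood highest with AA, where TGFB1 stood lowest, while HNRNPUL1 stood lowest there, as TGFB1 did. So did the overlapping locus ENSG00000286177 (219 counts, strand not known), at 2.62, 0.595 and 2.47 CPM in the 3 groups. The share of their reads in the TGFB1 count, if any, was not tested. B9D2, which ends 0.495 kb before the TGFB1 start on the same strand, was at 8.26, 5.03 and 6.50 CPM in the 3 groups.

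TGFB2 (ENSG00000092969, chromosome 1, 218345336 to 218444619), a second ligand, was at 76.5, 82.3 and 84.4 CPM in untreated cells. AA libraries had 87.2, 93.3 and 98.4 CPM and MYDGF libraries 87.1, 89.9 and 99.8 CPM. Every library given AA exceeded every untreated one, but the difference between AA and untreated cells did not pass the test (0.20, SE 0.0783, adjusted p = 0.0532). It did pass without AA 1 (adjusted p = 0.0234), MYDGF 1 (0.0413) or MYDGF 4 (0.0329), and with RLE size factors (0.0268) or DESeq2 (0.0223). The MYDGF group against AA gave a log2 fold change of -0.01 (SE 0.0781, adjusted p = 0.934).

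Within the TGFB2 locus lies TGFB2-OT1, a long noncoding RNA on the same strand. It had 306 counts in untreated 1 and 442 in AA 4, and between 4 and 6 in the other 7 libraries. Counted together with TGFB2, a setting chosen after seeing the data, the sums were 100.7, 82.7 and 84.7 CPM in untreated cells, 87.7, 127 and 98.9 with AA and 87.5, 90.2 and 100.1 in the MYDGF group. The untreated and AA ranges then overlapped, and the log2 fold change was 0.23 (adjusted p = 0.180). For the MYDGF group it was -0.18 against AA (adjusted p = 0.367) and 0.05 against untreated cells (adjusted p = 0.773).

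The ratio of TGFB1 to TGFB2 in FPKM, which is per length, was 2.22, 2.06 and 2.02 in untreated libraries, 1.11, 0.756 and 0.894 with AA and 1.36, 1.61 and 1.34 in the MYDGF group. TGFB1 was thus above TGFB2 in every untreated and every MYDGF library and below it in AA 4 and AA 6. The 3 groups of ratios did not overlap.

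**Figure D2:**
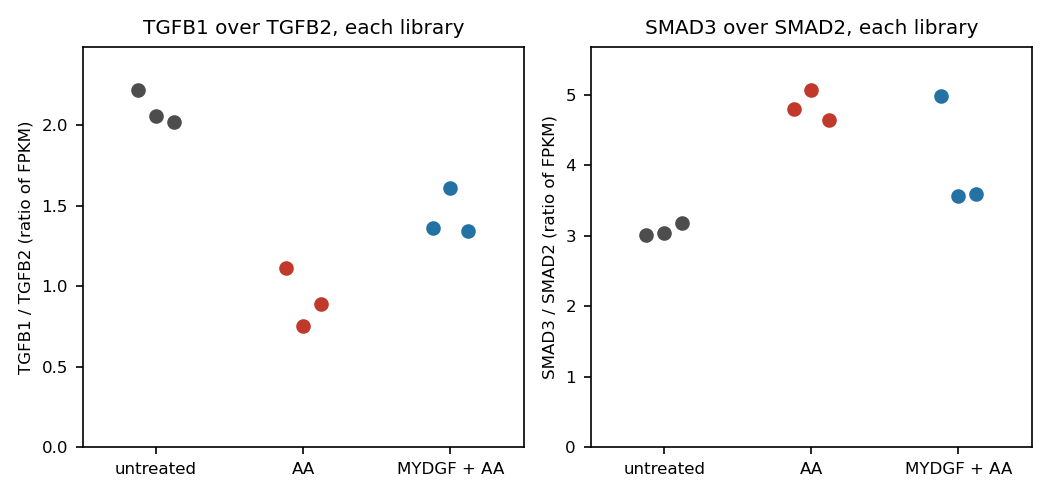
Ratio of FPKM between 2 ligands (TGFB1 over TGFB2, left) and between 2 signalling SMADs (SMAD3 over SMAD2, right) in each library, on linear axes from 0; each point is 1 library. TGFB1 over TGFB2 runs from 2.02 to 2.22 in untreated cells and from 0.756 to 1.11 with AA; SMAD3 over SMAD2 runs from 3.01 to 3.18 and from 4.65 to 5.07, with MYDGF 1 (4.99) beside the AA libraries.

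LTBP1 (ENSG00000049323, chromosome 2, 32946953 to 33399509), the binding protein that anchors latent TGF-beta in the matrix, was at 63.9, 59.5 and 66.7 CPM in untreated cells. AA libraries had 19.7, 23.5 and 24.3 CPM and MYDGF libraries 20.4, 23.9 and 20.1 CPM. All 6 libraries given AA were below every untreated library, and the 2 groups given AA overlapped. LTBP1 fell 2.82-fold with AA (-1.49, SE 0.108, adjusted p = 9.47e-06) and 2.95-fold in the MYDGF group against untreated cells (-1.56, SE 0.108, adjusted p = 1.14e-05). The MYDGF group against AA gave -0.07 (SE 0.109, adjusted p = 0.683). LTBP1 had the largest change of the members in the first and the third comparison. It is also the longest member locus, at 453 kb. Among protein-coding genes tested whose locus was over 80.2 kb, the longest 25%,, 30.5% were lower and 27.6% higher with AA, beside 32.9% and 28.4% of all protein-coding genes tested.

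TGFBR2 (ENSG00000163513, chromosome 3, 30606601 to 30694142), the type II receptor that binds the ligand first, was at 199.7, 199.8 and 216 CPM in untreated cells. AA libraries had 181, 179 and 184 CPM and MYDGF libraries 189.8, 194 and 189.2 CPM. The groups did not overlap in any comparison, and untreated 3 stood above the other untreated libraries. TGFBR2 fell with AA (-0.18, SE 0.0534, adjusted p = 0.0163), the smallest of the called member changes in that comparison. The call was lost without untreated 3 (-0.14, adjusted p = 0.0810) and in a fit of only the 6 libraries compared (adjusted p = 0.0711). The MYDGF group gave 0.08 against AA (adjusted p = 0.313) and -0.10 against untreated cells (adjusted p = 0.137).

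TGFBR1 (ENSG00000106799, chromosome 9, 99104038 to 99154192), the type I receptor kinase that phosphorylates SMAD2 and SMAD3, varied more within groups than between them. It was at 30.9, 30.4 and 79.1 CPM in untreated cells, at 24.8, 45.4 and 61.9 CPM with AA and, with MYDGF as well, at 44.9, 27.3 and 46.1 CPM. Untreated 3 was higher than all other libraries, and the 3 groups overlapped throughout. The coefficient of variation in untreated cells was 59.8%, against a median of 4.98% over the 8162 genes tested that were at least as abundant as SMAD7, which placed TGFBR1 at percentile 99.3. In the other groups it was 42.3% (percentile 97.9) with AA and 26.7% (percentile 94.8) with MYDGF. No comparison passed the test: the log2 fold changes were -0.09 (SE 0.429), -0.16 (SE 0.431) and -0.25 (SE 0.429), with adjusted p = 0.865, 0.817 and 0.655. Without untreated 3 the first of these became 0.52 and without AA 1 it became 0.21. The SE of TGFBR1 exceeded that of every other member in each comparison. The other members had no such spread in untreated cells, where their coefficients of variation ran from 0.174% for SMAD3 to 10.9% for SMAD7.

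SMAD3 (ENSG00000166949, chromosome 15, 67063763 to 67195173), the signalling SMAD that binds DNA directly and is tied to fibrosis, was at 241, 240.2 and 239.8 CPM in untreated cells. The AA libraries had 387, 427 and 432 CPM and the MYDGF libraries 282, 264 and 273 CPM. The order was AA above MYDGF above untreated in every library, with no overlap. SMAD3 rose 1.73-fold with AA (0.79, SE 0.0569, adjusted p = 9.38e-06) and fell 1.52-fold from AA to the MYDGF group (-0.61, SE 0.0567, adjusted p = 0.000446). Against untreated cells the MYDGF group was higher by 0.18 on the log2 scale (SE 0.0567, adjusted p = 0.0225). This small difference was not called without untreated 1, untreated 2 or MYDGF 1 (adjusted p = 0.0774, 0.0823 and 0.0587).

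SMAD2 (ENSG00000175387, chromosome 18, 47808957 to 47931146), the other signalling SMAD, did not pass the test in any comparison. It was at 238, 235 and 224 CPM in untreated cells, at 239.9, 251 and 276 CPM with AA and, with MYDGF as well, at 168, 219.5 and 226 CPM. MYDGF 1 was the lowest library. The log2 fold change was 0.14 with AA (SE 0.108, adjusted p = 0.295) and -0.32 in the MYDGF group against AA (SE 0.108, adjusted p = 0.0512), although those groups did not overlap. The latter passed without AA 1 (adjusted p = 0.0453) or MYDGF 4 (0.0427), with RLE size factors (0.0345), DESeq2 (0.0169) and limma voom (0.0470). Against untreated cells the MYDGF group gave -0.18 (adjusted p = 0.186).

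The ratio of SMAD3 to SMAD2 in FPKM was 3.01, 3.04 and 3.18 in untreated cells, 4.80, 5.07 and 4.65 with AA and 4.99, 3.57 and 3.59 in the MYDGF group. AA libraries exceeded every untreated library. MYDGF 3 and 4 were nearer the untreated ratios, and MYDGF 1, where SMAD2 was lowest, was among the AA ratios.

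SMAD7 (ENSG00000101665, chromosome 18, 48919853 to 48950965), the inhibitory SMAD, which blocks the type I receptor and recruits ubiquitin ligases to it, was at 12.4, 15.02 and 15.2 CPM in untreated cells. The AA libraries had 27.4, 30.1 and 30.3 CPM and the MYDGF libraries 23.4, 24.0 and 22.8 CPM. The lowest AA library was above the highest MYDGF library, and every MYDGF library was above every untreated one. SMAD7 rose 2.06-fold with AA (1.04, SE 0.103, adjusted p = 3.98e-05) and 1.65-fold in the MYDGF group against untreated cells (0.72, SE 0.103, adjusted p = 0.000432). It fell 1.25-fold from AA to the MYDGF group (-0.32, SE 0.100, adjusted p = 0.0390). That smaller call was lost without untreated 2 (adjusted p = 0.0532), untreated 3 (0.0534), AA 4 (0.0958), AA 6 (0.0962), MYDGF 1 (0.0779), MYDGF 3 (0.0844) or MYDGF 4 (0.102), and without a filter on low counts (0.0910). SMAD7 rests on 157 to 390 counts per library, the fewest of the 8 members in total (2530). In every library given AA, LTBP1 had fewer (243 to 306).

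**Figure D3:**
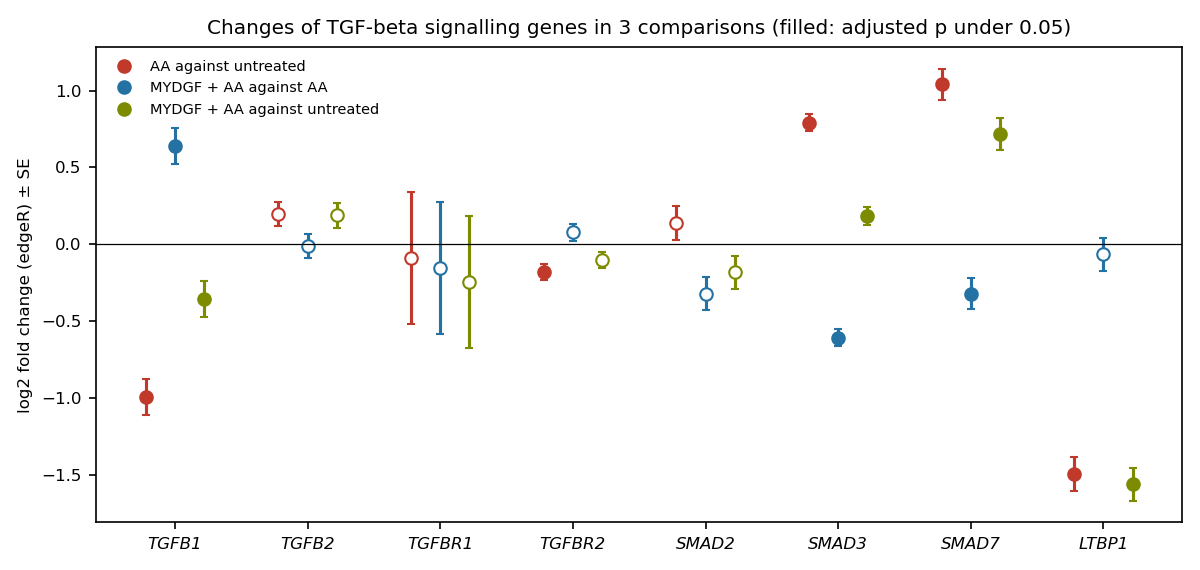
log2 fold change ± SE of each TGF-beta gene in the 3 comparisons (edgeR, n = 3 libraries a group); filled points passed an adjusted p of 0.05 and open points did not. LTBP1 is the lowest with AA (-1.49) and stays low in the MYDGF group against untreated cells (-1.56). All members but LTBP1 and TGFBR1 have opposite signs in AA against untreated cells and MYDGF against AA, 2 comparisons that share the AA libraries. Only TGFB1, SMAD3 and SMAD7 were called in both of them, and the bars of TGFBR1 are the widest.

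Per length, the order of the members changed with AA. In untreated cells the deposited FPKM placed TGFB1 first (mean 20.8), then TGFBR2 (15.9), SMAD3 (12.1), TGFB2 (9.94), LTBP1 (4.92), SMAD2 (3.95), TGFBR1 (1.91) and SMAD7 (1.45), and only TGFBR1 and SMAD7 overlapped as neighbours. With AA, SMAD3 was first (21.3), then TGFBR2 (14.3), TGFB2 (11.6) and TGFB1 (10.6), which overlapped each other, then SMAD2 (4.41), SMAD7 (3.02), TGFBR1 (1.83) and LTBP1 (1.77), the last pair again overlapping. With MYDGF and AA, TGFB1 (16.4) and TGFBR2 (14.9) overlapped at the top, followed by SMAD3 (13.9), TGFB2 (11.4), SMAD2 (3.50), SMAD7 (2.40), LTBP1 (1.68) and TGFBR1 (1.63), the last pair overlapping.

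The order between genes depended on the length used. The lengths behind the deposited FPKM exceeded the merged exons of GENCODE 29 for every member, from 1.30 times for TGFB1 (4.20 against 3.24 kb) to 3.53 times for TGFBR1 (24.2 against 6.84 kb). Per kb of GENCODE 29 exons, TGFBR2 was first in untreated cells (43.6 CPM per kb, against 27.3 for TGFB1 and 26.4 for SMAD3). With AA, SMAD3 was first on this scale too, at 45.6 CPM per kb. Comparisons of 1 gene between groups do not depend on its length.

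The genes whose levels followed each member most closely were taken as the 2 highest Pearson correlations of log2 CPM over the 9 libraries, among 13704 protein-coding genes. They are a description: the 9 libraries share 3 groups, so any gene that differs between groups in the same order correlates. TGFB1 was nearest to CDC25B (r = 0.997) and SDK1 (0.996), LTBP1 to CHMP2A (0.997) and RASA1 (0.993), and SMAD7 to INO80 (0.995) and CDKL3 (0.992). SMAD3 was nearest to FAM171A1 (0.993), and TGFBR2 to TPCN1 (0.985) and LARGE2 (0.979). SMAD2, TGFBR1 and TGFB2 were called in no comparison of the main fit. Their nearest genes were JADE2 (0.962) and TIAM1 (0.935) for SMAD2, METTL14 (0.961) and ESCO1 (0.900) for TGFBR1 and RBAK (0.935) and SBK3 (0.928) for TGFB2. More than 400 other genes had an r over 0.95 with TGFB1 (468), SMAD7 (549) or LTBP1 (445), but only 1 with SMAD2, 1 with TGFBR1 and 0 with TGFB2. Among the members, TGFB1 and SMAD3 ran opposite to each other (r = -0.967), as did LTBP1 and SMAD7 (-0.902).

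The other genes of the pathway were read in 4 lists, written with earlier results of these data known. Of 11 tested genes of latency and activation, 5 fell and 1 rose with AA (median log2 change -0.54, beside -0.01 over all genes), where 29.3% of all genes tested fell and 29.7% rose. LTBP4, a relative of LTBP1, fell by 1.002 on the log2 scale (adjusted p = 4.88e-05) and was higher by 0.77 in the MYDGF group than with AA (adjusted p = 0.00150). BMP1, a protease that releases the latent complex, fell by 0.90 (adjusted p = 1.35e-05) and stood at 0.06 between the MYDGF group and AA, where LTBP1 stood at -0.07. ITGB8, a subunit of an integrin that activates latent TGF-beta, fell by 1.58 with AA and was lower again, by 1.15, in the MYDGF group against AA (adjusted p = 0.000192 and 0.00771). LTBP2, another relative, was at -0.27 with AA (adjusted p = 0.0433), a call lost without untreated 1, 2 or 3, AA 1 or 6, or MYDGF 1 or 4 (adjusted p = 0.0602 to 0.161). THBS1, thrombospondin, which also activates the latent form, rose by 0.63 with AA (adjusted p = 0.000280). From AA to the MYDGF group the list had 2 higher and 3 lower genes of 11 (median 0.06, beside 29.4% of all genes called), LTBP2 (-0.75) and FBN1 (-0.49), matrix partners of the latent complex, among the lower. THBS1, at 0.34 there, was not called without AA 4, MYDGF 1 or MYDGF 4 (adjusted p = 0.0589, 0.0622 and 0.0701).

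Partners of the receptors included 4 that fell and 1 that rose with AA, of 7 tested (median -0.26), beside 59% of all genes tested called in either direction. TGFBR3, the co-receptor that presents ligand to TGFBR2, fell by 0.94 (adjusted p = 0.000172), FKBP1A, which binds the type I receptor, by 0.64 (adjusted p = 0.000310) and CD109, a co-receptor that restrains signalling, by 0.53 (adjusted p = 0.000552). ZFYVE9, the SMAD anchor at the receptor, was at -0.26 (adjusted p = 0.0417), a call lost without untreated 2 or 3, AA 4 or 6, or MYDGF 1, 3 or 4 (adjusted p = 0.0624 to 0.129). ENG, endoglin, rose by 3.33 (adjusted p = 0.000193) from 3 to 7 counts in untreated libraries to 40 to 61 with AA. ENG is also an endothelial marker, and the summed endothelial markers (PECAM1, VWF, CDH5, KDR, TEK) went from 1.29 to 1.43 CPM in untreated cells to 7.85 to 13.8 with AA and 3.83 to 4.31 in the MYDGF group. With AA most of that sum was PECAM1 (5.02 to 11.3 CPM). PECAM1 and TEK were called higher with AA, while VWF and KDR were too low to test. CDH5 was not called with AA (0.53, adjusted p = 0.344) and was highest in the MYDGF group (0.919 to 1.72 CPM). The part of these markers in the ENG result was not tested. In the MYDGF group against AA, 1 gene rose, CD109 (0.39, adjusted p = 0.00949), and 1 fell, ENG (-1.43, adjusted p = 0.0178), with a list median of -0.01 and 29.4% of all genes called. That ENG call was lost without AA 4 (adjusted p = 0.0534), AA 6 (0.0592), MYDGF 3 (0.0527) or MYDGF 4 (0.0647).

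SMAD partners and brakes included 6 that rose and 3 that fell with AA, of 15 tested (median 0.21), a share called that is close to the 59% of all genes tested. The ubiquitin ligases that act with SMAD7 on receptors and SMADs were among those that rose: NEDD4L by 1.46 (adjusted p = 1.95e-05), SMURF2 by 1.11 (adjusted p = 0.000104) and SMURF1 by 0.30 (adjusted p = 0.00201). The deubiquitinase USP15 rose by 0.93 (adjusted p = 0.000200), PMEPA1, which sequesters receptor-activated SMADs, by 0.71 (adjusted p = 8.52e-05) and the co-repressor SKIL by 0.61 (adjusted p = 0.00163), while CTDSP1, a SMAD phosphatase, fell by 0.36 (adjusted p = 0.00508). In the MYDGF group against AA, 4 of 15 fell and 1 rose (median -0.26), close to the 29.4% of all genes called there, with NEDD4L at -0.70 (adjusted p = 0.00411), SKIL at -0.65 (adjusted p = 0.00448) and SMURF1 at -0.33 (adjusted p = 0.00469). The call of CTDSP1 (0.29) in that comparison was lost without AA 4 or 6 or MYDGF 1, 3 or 4 (adjusted p = 0.0720 to 0.112). That of SMURF2 (-0.42) was lost without the same libraries or untreated 3 (adjusted p = 0.0531 to 0.128).

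Known target genes included 9 that rose and 3 that fell with AA, of 17 tested (median 0.58), beside 29.7% and 29.3% of all genes tested. KLF10, an early TGF-beta response factor, rose by 2.14 (adjusted p = 1.42e-05), CCN2, a matrix-associated growth factor, by 1.02 (adjusted p = 2.80e-05), CDKN2B, a cell cycle inhibitor, by 0.64 (adjusted p = 0.000534) and JUNB by 0.58 (adjusted p = 0.00234). FN1, fibronectin, fell by 1.62 (adjusted p = 1.18e-05) and ID1, a transcriptional regulator induced through SMAD1 and SMAD5, by 1.05 (adjusted p = 0.000175). The list thus did not move in a single direction. In the MYDGF group against AA, 2 of 17 rose and 3 fell (median 0.05), close to the 29.4% of all genes called there: FN1 was higher by 1.20 (adjusted p = 0.000684) and CDKN2B and JUNB were lower (-0.79 and -0.55, adjusted p = 0.00140 and 0.00886). CCN2, at 177 to 232 CPM with AA and 197 to 216 in the MYDGF group, gave 0.05 (adjusted p = 0.731). KLF10, at -0.59 there, was not called without AA 4 or 6 or MYDGF 1, 3 or 4 (adjusted p = 0.0505 to 0.0833). ACTA2, smooth muscle actin, was at 0.96 with AA and 1.22 in the MYDGF group against AA, from at most 5.00 CPM, and its first call was lost without untreated 1, untreated 2 or AA 1 (adjusted p = 0.0884, 0.0920 and 0.0726).

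**Figure D4:**
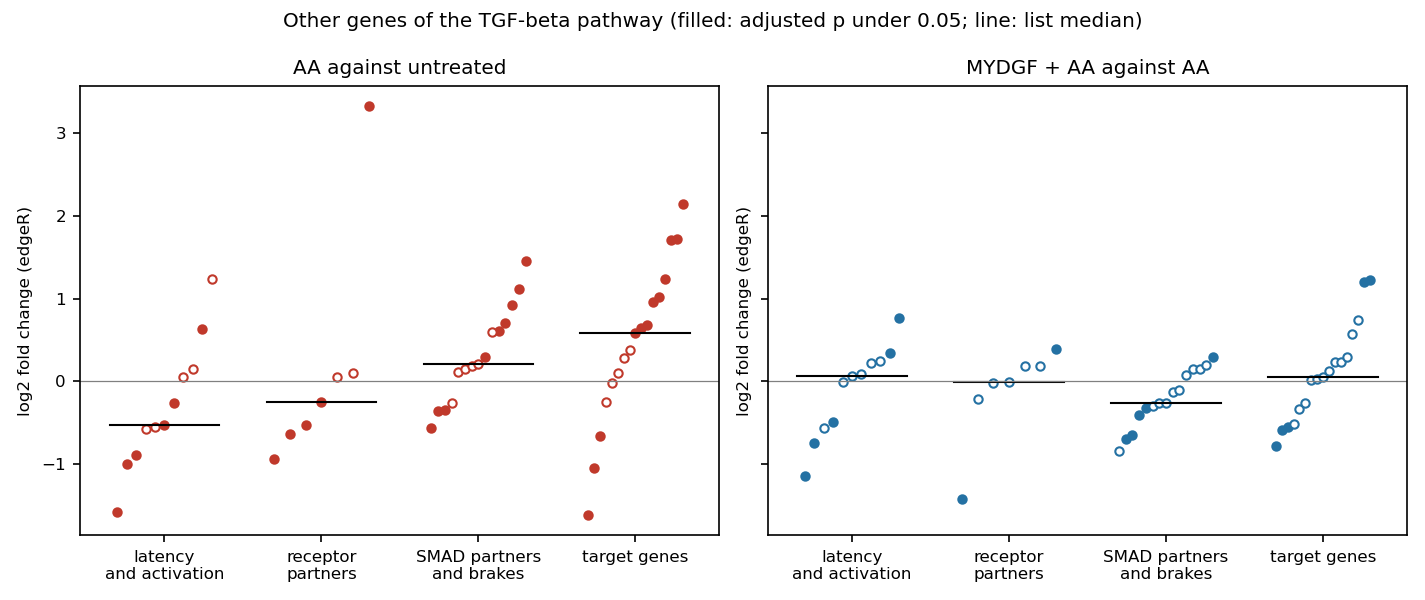
log2 fold change of the tested genes of 4 further TGF-beta lists (n = 11, 7, 15 and 17), in AA against untreated cells and in the MYDGF group against AA (edgeR); each point is 1 gene, filled where the adjusted p was under 0.05, and the black line is the list median. With AA the medians are -0.54, -0.26, 0.21 and 0.58, and in the right panel 0.06, -0.01, -0.26 and 0.05; the highest point at left is ENG (3.33).

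Total counts ran from 10.9 to 14.3, in units of 1e6, over the libraries. Genes with any count numbered 25852 to 26012 in untreated libraries, 28527 to 30637 with AA and 27818 to 28762 in the MYDGF group. The part of this difference in the rises of genes with few counts was not tested. Epithelial markers KRT8, KRT18 and CDH1 were abundant in all libraries. Of the proximal tubule and kidney markers, LRP2 (18 counts over 9 libraries), SLC34A1 (10) and PAX8 (69) were near 0, while GGT1 (803), CUBN (488) and AQP1 (265) were low but present. Of the 12 epithelial and tubule markers listed, 8 were tested, and LRP2, SLC34A1, PAX8 and CDH2 (11 counts) were too low. With AA, 7 of the 8 rose and 1, CDH1, fell, beside 29.7% and 29.3% of all genes tested. KRT8 was at 559.6 to 592 CPM in untreated cells and 872 to 1001 with AA, and KRT18 at 368 to 375 and 586 to 599. CDH1, E-cadherin, was at 96.9 to 106 CPM in untreated cells, 40.5 to 52.8 with AA and 70.5 to 76.2 in the MYDGF group. Of the markers of other cells, UMOD and CD3E had 0 counts and LUM 2, while COL1A1 had 1223, ITGAM 728, NPHS1 488 and SLC12A3 330. With AA, SLC12A3 rose by 5.08 on the log2 scale, ITGAM by 4.12 and NPHS1 by 1.27 (edgeR adjusted p = 1.89e-05, 5.44e-06 and 0.000377). COL1A1 was not called with AA (-0.26, adjusted p = 0.361), and no marker of other cells was called lower. The summed markers of fibroblasts and mesangial cells were at 12.0 to 13.8, 10.2 to 16.9 and 18.4 to 20.4 CPM in the 3 groups, those of leukocytes (mostly ITGAM) at 0.503 to 1.29, 12.2 to 15.3 and 5.87 to 7.43, and those of the distal nephron and podocytes at 2.77 to 3.57, 9.72 to 15.5 and 5.15 to 7.05. Their part in the member results was not tested. In bulk RNA, fewer cells of a type and less RNA per cell cannot be told apart. The treatment text of 4 libraries reads HK-3 or HK-4 in place of HK-2, and they were read as HK-2, as their cell line label says.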

How the data were processed

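Per the labels' protocols, each library was made from 1.3 µg of total RNA. The deposited table holds counts per gene, whole numbers that the authors did not normalize, and FPKM values that the authors scaled by gene length and library total, per the file headers and the values. The submitters' processing notes list edgeR, HISAT2, SAMtools 1.3.1, CASAVA 1.8 and the build mm10, a mouse build, although the table lists human Ensembl IDs. The deposited positions are printed and taken as GRCh38, because 99.9% of the IDs that GENCODE 29 also holds overlap the position it gives for the gene. The counter, annotation release and strand setting are not stated in any source used here.

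Counts were fitted with edgeR 4.0.16 (TMM, filterByExpr with minimum count 10 and minimum total 15, quasi-likelihood, 3 groups, 9 libraries, 6 residual degrees of freedom), with Benjamini-Hochberg adjusted p-values over 18267 genes and a threshold of 0.05. CPM are TMM-scaled. The biological coefficient of variation was 16.4%. Replicate pairs differed by more than sampling noise, and the script was tested on simulated counts. AA 1 and AA 4 were the most unlike pair (chi-square per gene 20.5, against 9.75 to 13.6 for the other pairs). Alternatives were RLE factors, DESeq2 1.42.0, limma 3.58.1 voom, no filter, only the libraries compared, a replicate block and leaving out each library. All members were named, plus from each further list the 4 genes with the lowest p in each of the first 2 comparisons, 2 nearest genes by r per member, and the nearest upstream gene; 1 gene that this rule names is not reported here. The 8 members and all lists were chosen with earlier results of these data known. A planned comparison of the member proteins was not run, because no protein sequences were used here.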

Additional observations from a re-analysis of the deposited data

How the results depend on the processing

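With the replicate number as a block, 2652 genes were higher and 2410 lower with AA (4 members called), 8 and 6 in the MYDGF group against AA (0 members, TGFB1 with adjusted p = 0.100 and SMAD3 0.0691), and 2909 and 2537 in the MYDGF group against untreated cells (2 members). The block leaves fewer residual degrees of freedom than the 6 of the main fit. Untreated 2 and AA 6 carry numbers used once, so they add nothing to the comparisons under it. The lower number of calls therefore cannot be read as smaller changes. In MYDGF against AA, TGFB1 gave 0.63 with the block and 0.64 without it, and SMAD3 -0.56 and -0.61. The labels do not say whether the numbers pair the samples. At most 2 are shared between groups, and the deviations of same-numbered libraries correlated at -0.16 to 0.02. So few shared numbers cannot settle whether libraries were paired. Without the block and with all libraries the counts were 5418 and 5361, 2688 and 2691, and 4889 and 4440; with RLE factors they were 5745 and 5017 with AA and 2378 and 3028 in the second comparison. Leaving out 1 library gave 4988 to 5997 higher, 4685 to 5350 lower and 4 to 6 members with AA, 1799 to 3152, 1678 (without MYDGF 3) to 3462 and 2 to 4 in the second comparison, and 4221 to 5427, 3544 to 4690 and 2 to 5 in the third. Without a filter, 2 members were called in the third. TGFB1, SMAD3, SMAD7 and LTBP1 kept their direction and call with AA under all alternatives run.

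Signs changed only for values that passed no test in any setting. Leaving out 1 library, TGFBR1 ran from -0.39 to 0.52 with AA, from -0.44 to 0.16 in MYDGF against AA and from -0.49 to 0.38 against untreated cells. In MYDGF against AA, TGFB2 ran from -0.076 to 0.023, FKBP1A from -0.066 to 0.038 and CCN2 from -0.034 to 0.15, and against untreated cells SKIL ran from -0.10 to 0.068 and JUNB from -0.024 to 0.11. With the block, TGFBR1 (0.24) and TGFB2 (0.032) in MYDGF against AA, and ZFYVE9 (0.028), SKIL (0.032) and JUNB (-0.038) against untreated cells, changed sign, and without a filter TGFB2 (0.0015) and FKBP1A (0.0011) did in MYDGF against AA. The causes were not tested. TGFBR1 had 306 to 1045 counts per library, and SMAD7, the member with the fewest in total, 157 to 390.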

Other observations

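The nearest active gene upstream on the same strand was read beside each member. RRP15, which ends 7.35 kb before TGFB2 on the same strand, was at 35.8 CPM in untreated cells, 79.7 with AA and 57.7 in the MYDGF group (log2 fold change 1.15 with AA, adjusted p = 2.68e-05), beside 0.20 for TGFB2. TTC27, 126 kb before LTBP1, rose by 0.65 with AA (adjusted p = 0.00153) and was lower by 0.88 in the MYDGF group than with AA (adjusted p = 0.00184), while LTBP1 fell by 1.49 and gave -0.07. GALNT12, 254 kb before TGFBR1, fell by 1.99 with AA (adjusted p = 0.000164). SMAD6, the second inhibitory SMAD, lies 281 kb before SMAD3 and was at 48.4, 52.1 and 57.7 CPM in the 3 groups, with no call in any comparison (adjusted p = 0.378, 0.296 and 0.0567), where SMAD7 was called in each. DYM, 85.4 kb before SMAD7, fell by 0.32 with AA (adjusted p = 0.0464).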
